A study of Homo sapiens with 12 samples.

Results

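The genes described here are 9 members of the cell's alarm against foreign RNA: the sensors DDX58, IFIH1 and DHX58, their adaptor MAVS, and the transcription factors STAT2, IRF1, IRF3, IRF7 and IRF9. They were taken by symbol from a table of 56832 genes, and all 9 were found. Their choice was made with the knockout comparison of these data known, so every value of that comparison is given as a description and supports nothing. The measurements came from DU145, an established human prostate cancer cell line grown in RPMI medium with 10% fetal bovine serum. Of the 6 DU145 lines, 3 were RAC1 knockout clones made with Cas9: sgRAC1 clone 1 with guide sgRAC1_1, and sgRAC1 clones 3 and 2 with guide sgRAC1_2. The 3 RAC1-positive lines, labelled WT, were sgNTC clones 1 and 2, both made with 1 non-target guide, and the parental cells. RAC1 encodes a small GTPase of actin-driven cell movement. Each clone grew from a single cell, so a clone is 1 line and the genotypes are compared over 3 lines each. Each line had 2 libraries, labelled as biological replicates, and the replicate number is also the batch.

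RIG-I-like receptors are helicases of the cytosol that bind double-stranded or otherwise foreign RNA. Once bound to RNA they engage MAVS on the mitochondrial surface, and kinases there activate IRF3 and IRF7, which switch on type I interferon genes. Secreted interferon then signals through its receptor and JAK kinases to a complex that holds STAT2 and IRF9 and binds response elements in many antiviral genes, the sensor genes among them.

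Levels are TPM, transcript abundances per unit of length that sum to 1000000 in each library, so the depth of each library is unknown. A gene counted as expressed here if its mean was at least 1 TPM in either genotype, which 17367 genes reached. Of the 9 members, DDX58, IFIH1, MAVS, STAT2 and IRF3 did and DHX58, IRF1, IRF7 and IRF9 did not. IFIH1 passed only through the knockout lines, where it is higher. RAC1 was listed at 46.2 ± 9.14 TPM over knockout clones and 172 ± 4.60 TPM over RAC1-positive lines (SD, n = 3 lines each). Replicate 1 of sgNTC clone 2 stood apart, with 13608 genes above 0 against 20470 to 25156 in the other 11. It listed 5 of the 9 members at 0. The epithelial markers EPCAM, KRT8, KRT18, KRT19 and CDH1 were above 0 in all 12 libraries, with sums of 372.4 to 751.5 TPM in knockout and 272.9 to 801.5 TPM in RAC1-positive libraries. CDH1 alone, the junction protein E-cadherin, was at 7.04 to 21.0 TPM in knockout and 1.99 to 6.25 TPM in RAC1-positive libraries, with no overlap. KLK3 of luminal prostate cells was at 0 in all 12. Of 5 leukocyte markers, PTPRC and CD3E were at 0 in all 12 libraries. The leukocyte markers summed to 0.726 to 4.23 TPM in knockout libraries and 0 to 1.08 TPM in RAC1-positive ones, most of it from CD14. Endothelial markers summed to 0.118 to 0.791 TPM in knockout libraries and 0 to 0.173 TPM in RAC1-positive ones, with VWF at 0 throughout, and fibroblast markers to at most 0.321 TPM and 0.207 TPM. The part of these markers in the results was not tested.

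By mean level over the 12 libraries STAT2, DDX58 and IRF3 came first, at ranks 6969, 7300 and 7811 among 32987 genes above 0 in any library. MAVS followed at rank 11370, and IFIH1 stood at rank 16444. IRF1, DHX58, IRF7 and IRF9 ranked 18171, 22079, 23019 and 24495. These are bulk cultures, so fewer cells that use a gene and less RNA per cell cannot be told apart.

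In the comparison of knockout with RAC1-positive lines, which asked what loss of RAC1 goes with, DDX58, IFIH1 and STAT2 were the 3 expressed members whose knockout clones each lay above every RAC1-positive line. Among all 17367 genes 11.97% were separated upward and 8.52% downward, and nothing is read from this for genes picked on this contrast. MAVS and IRF3 overlapped between the genotypes. No member passed a limma adjusted p of 0.05 over lines, where 0.00576% of all genes (1 of 17367, RAC1 itself) were called. At an unadjusted limma p under 0.05 there were 2256 genes, or 12.99%, with DDX58, IFIH1 and STAT2 among them. The median log2 difference over the 5 expressed members was 0.49, and over all genes it was 0.02. The 5 include IFIH1, which passed the level filter only through the knockout lines, so its difference was built in. The other 4 were at 1.32 (DDX58), 0.49 (STAT2), 0.09 (MAVS) and -0.11 (IRF3), and nothing is read from the median.

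**Figure D1:**
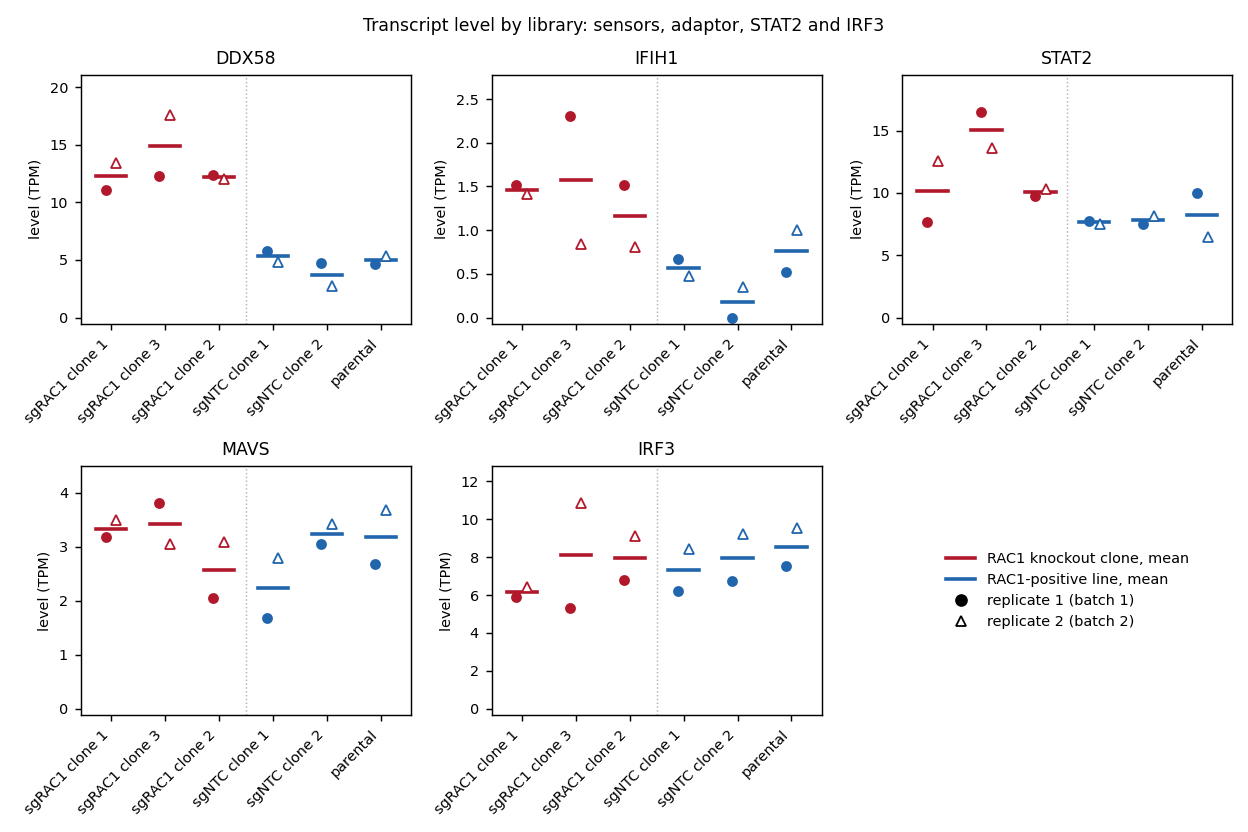
Level in TPM (vertical axis) of the 5 expressed members in each library of the 6 lines (horizontal axis), with filled circles for replicate 1, open triangles for replicate 2 and bars for the mean of the line. All 6 DDX58 values of knockout clones lie at or above 11.1 TPM and all 6 of RAC1-positive lines at or below 5.81 TPM, while the STAT2, IFIH1, MAVS and IRF3 libraries of the genotypes overlap.

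The sequence before the start of 4 members is shown because interferon response elements lie before many genes of this loop. The 4 are DDX58, IFIH1 and STAT2, whose lines were apart, and IRF1, whose lines were not. The stretches are RefSeq's (GRCh38.p14), on the strand of the gene, and run up to 250 bases before the RefSeq start. They were cut short where GENCODE 29 places the start more than 30 bases earlier, which is the case for DDX58 and STAT2. Capitals mark the motifs named after the sequences.
DDX58, chr9:32526325-32526446, minus strand: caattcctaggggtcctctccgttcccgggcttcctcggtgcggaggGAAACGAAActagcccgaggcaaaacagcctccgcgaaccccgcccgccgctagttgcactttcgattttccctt
IFIH1, chr2:162318685-162318934, minus strand: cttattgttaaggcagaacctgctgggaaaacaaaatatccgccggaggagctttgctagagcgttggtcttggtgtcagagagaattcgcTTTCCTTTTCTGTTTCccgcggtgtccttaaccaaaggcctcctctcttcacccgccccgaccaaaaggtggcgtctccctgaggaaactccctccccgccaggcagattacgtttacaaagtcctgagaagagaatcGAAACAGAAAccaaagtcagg
STAT2, chr12:56360156-56360357, minus strand: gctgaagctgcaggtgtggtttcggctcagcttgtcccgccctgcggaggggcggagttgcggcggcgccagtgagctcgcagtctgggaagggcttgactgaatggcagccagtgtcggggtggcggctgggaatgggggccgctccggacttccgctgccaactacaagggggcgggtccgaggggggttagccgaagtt
IRF1, chr5:132490774-132491023, minus strand: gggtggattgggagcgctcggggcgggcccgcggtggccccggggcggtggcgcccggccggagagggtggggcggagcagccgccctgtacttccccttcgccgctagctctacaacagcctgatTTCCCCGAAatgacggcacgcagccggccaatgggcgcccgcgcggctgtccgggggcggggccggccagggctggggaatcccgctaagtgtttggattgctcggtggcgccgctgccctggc

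Both strands of the 250 bases were searched for the core of the interferon-stimulated response element (GAAA, any 2 bases, GAAA) and the core of the gamma-activated site, written TTCNNNGAA, which STAT dimers bind. IFIH1 held 3 matches of the response element core. A pair at positions -159 to -150 and -153 to -144 from the RefSeq start overlap each other on the opposite strand, and the third lies at -21 to -12. This core occurs in 3.02% of 35116 RefSeq promoters of the same length. IRF1 held 1 match of the gamma-activated core at -124 to -116 and IRF9 held 1 at -63 to -55, against 6.57% of promoters. GENCODE 29 places the start of IRF9 212 bases before the RefSeq start, so by that annotation its match lies inside the transcript. DDX58 matched neither, but held GAAANGAAA, a core with a 1-base spacer that was added after the sequences were seen, at -203 to -195, a motif found in 2.69% of promoters. STAT2 and MAVS held none of the 3 in this window. The sequences of MAVS and IRF9 were searched but are not shown. For the other 3 members, DHX58, IRF3 and IRF7, no sequence was available, so they were not searched.

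DDX58 encodes RIG-I, the sensor of short double-stranded RNA and of RNA with a triphosphate end. It spans chr9:32455705-32526324 on the minus strand (GRCh38, GENCODE 29), and its exons overlap no other gene. Its libraries were at 11.1 and 13.4 TPM in sgRAC1 clone 1, 12.3 and 17.6 TPM in sgRAC1 clone 3, and 12.4 and 11.997 TPM in sgRAC1 clone 2. In the RAC1-positive lines they were at 5.81 and 4.85 TPM in sgNTC clone 1, 4.70 and 2.76 TPM in sgNTC clone 2, and 4.63 and 5.34 TPM in the parental cells. All 6 knockout libraries were above all 6 RAC1-positive ones, the highest being the second library of sgRAC1 clone 3 and the lowest the second of sgNTC clone 2. It was the only member with its libraries apart, an upward separation that 2.14% of all genes had. Line means were 13.1 ± 1.56 TPM in knockout and 4.68 ± 0.84 TPM in RAC1-positive lines (SD, n = 3 lines each), a ratio of 2.81.

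On the log2(TPM + 1) scale DDX58 differed by 1.32, with an SE of 0.17 and a limma adjusted p of 0.143. The difference was 1.55 within batch 2 and 1.10 within batch 1. The call depended on what counts as a sample. With 12 libraries as samples and a random block for the line, the limma adjusted p was 0.0016, where 2.12% of all genes were called. With the replicate block, and no term for the line, the limma adjusted p was 0.0044 (1.98% of genes called). With the random block but without sgNTC clone 2 replicate 1 it was 0.00213 (3.38%). With 12 libraries the random block had an estimated correlation of -0.0299, so both libraries of a clone counted almost as independent samples. These smaller p-values thus rest on libraries and not on lines. Over all alternatives the limma adjusted p ran from 0.0016 to 0.404. Over lines without sgNTC clone 2 replicate 1 the difference was 1.42 (limma adjusted p = 0.0669). DDX58 in the authors' deposited table, where a positive sign means higher in knockout lines, had a log2 fold change of 1.46 with an adjusted p of 2.69e-12 at a mean normalized count of 66.6. It was the only member of 6 in that table past 0.05, where 5.68% of 15140 genes were higher and 4.06% lower. Within the RAC1-positive lines, neighbours in the order sgNTC clone 1, parental and sgNTC clone 2 had overlapping libraries, and so did the 3 knockout clones.

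IFIH1 encodes MDA5, the sensor of long double-stranded RNA (chr2:162267079-162318703, minus strand). It was a low transcript. Its libraries were at 1.51 and 1.42 TPM in sgRAC1 clone 1, 2.30 and 0.847 TPM in sgRAC1 clone 3, and 1.52 and 0.805 TPM in sgRAC1 clone 2. The RAC1-positive ones were at 0.665 and 0.475 TPM in sgNTC clone 1, 0 and 0.346 TPM in sgNTC clone 2, and 0.516 and 0.998 TPM in the parental cells. The line means did not overlap but the libraries did, since the second parental library was above the second libraries of sgRAC1 clones 3 and 2. The value of 0 belongs to the library that stood apart. The log2 difference was 0.68 (SE 0.26, limma adjusted p = 0.345), and 0.61 without that library. At this low level its size moved with the constant added before taking logs, to 1.54 with 0.1 TPM and 0.22 with 5 TPM. It was 0.34 within batch 2 and 1.02 within batch 1, and the change of -0.68 in batch 2 relative to batch 1 had a limma adjusted p of 0.904. The authors' deposited table gave a log2 fold change of 1.23 and an adjusted p of 0.0508 at a mean normalized count of 7.46.

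DHX58 encodes LGP2, a relative of both sensors that lacks their signalling domain and tunes their activity (chr17:42101404-42112733, minus strand). It was seen mainly in 1 clone. The libraries of sgRAC1 clone 3 were at 0.958 and 1.497 TPM, against 0.298 and 0 TPM in sgRAC1 clone 2, which carries the same guide, and 0 and 0.222 TPM in sgRAC1 clone 1. The RAC1-positive libraries ran from 0 to 0.168 TPM, with 3 of the 6 at 0. Both libraries of sgRAC1 clone 3 were above each of the other 10. The next lines were close, with a mean of 0.111 TPM in sgRAC1 clone 1 and 0.106 TPM in sgNTC clone 1 and overlapping libraries. No fold is given, as libraries of both genotypes are listed at 0, and the authors' deposited table holds no comparison of this gene.

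MAVS, the adaptor of RIG-I and MDA5, spans chr20:3846799-3876123 on the plus strand. Its libraries ran from 2.04 through a median of 3.14 to 3.80 TPM over knockout clones and from 1.69 through 2.92 to 3.68 TPM over RAC1-positive lines. The genotypes overlapped over most of their range. Line means were 3.11 ± 0.47 TPM in knockout and 2.88 ± 0.55 TPM in RAC1-positive lines (SD, n = 3 lines each), a log2 difference of 0.09 (SE 0.20, limma adjusted p = 0.873). The sign turned within batch 2 (-0.02) and without the line sgNTC clone 1 (-0.04).

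STAT2, which acts in interferon signalling together with IRF9, spans chr12:56341597-56360155 on the minus strand. Its libraries were at 7.69 and 12.6 TPM in sgRAC1 clone 1, 16.5 and 13.7 TPM in sgRAC1 clone 3, and 9.75 and 10.3 TPM in sgRAC1 clone 2. The RAC1-positive ones were at 7.79 and 7.54 TPM in sgNTC clone 1, 7.53 and 8.11 TPM in sgNTC clone 2, and 9.98 and 6.45 TPM in the parental cells. Both libraries of sgRAC1 clone 3 were above all others, whereas the libraries of sgRAC1 clones 1 and 2 overlapped with those of the parental cells. Line means were 11.7 ± 2.87 TPM in knockout and 7.90 ± 0.28 TPM in RAC1-positive lines (SD, n = 3 lines each), a log2 difference of 0.49 (SE 0.18, limma adjusted p = 0.328), and 0.48 without sgNTC clone 2 replicate 1. Within batch 2 it was 0.65 and within batch 1 it was 0.33. The authors' deposited table gave 0.53 with an adjusted p of 0.0565.

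IRF9, the DNA-binding partner of STAT2, was close to the floor of these libraries (chr14:24161053-24166565, plus strand). Knockout libraries ran from 0 through a median of 0.202 to 0.451 TPM and RAC1-positive ones from 0 through 0 to 0.476 TPM. Values of 0 occurred in 2 of the 6 knockout libraries and in 4 of the 6 RAC1-positive libraries. In GENCODE 29, 48.4% of the exon bases of IRF9 are shared with AL136295.5 on the same strand. The labels do not state how such reads were assigned, so the level is uncertain.

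**Figure D2:**
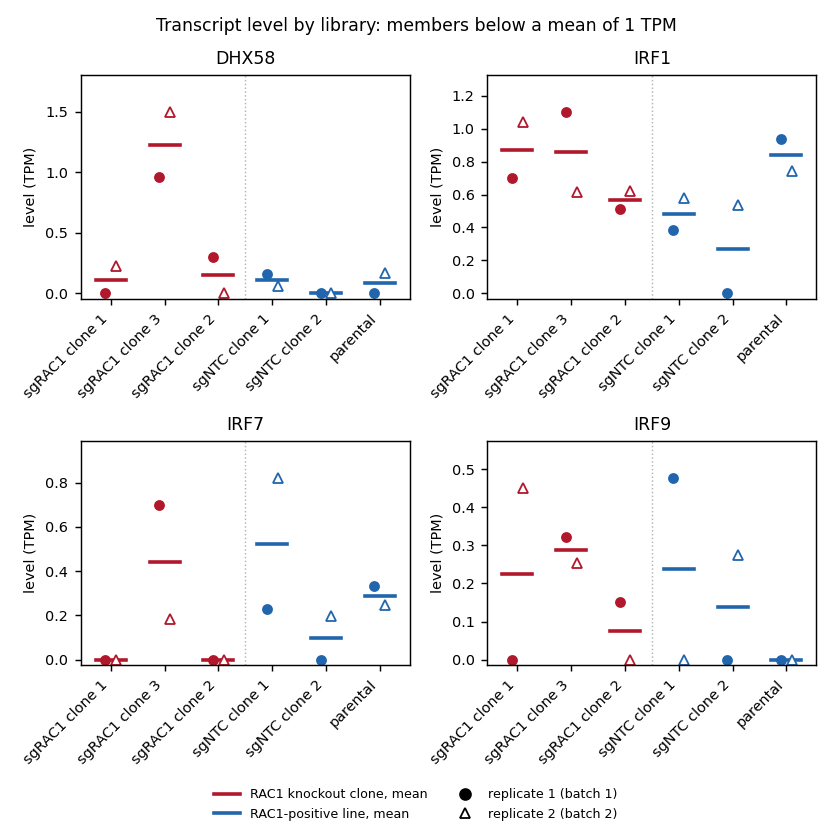
Level in TPM (vertical axis) of the 4 members under a mean of 1 TPM in each library of the 6 lines (horizontal axis), with filled circles for replicate 1, open triangles for replicate 2 and bars for the mean of the line. DHX58 is at 0.958 and 1.497 TPM in sgRAC1 clone 3 and at or below 0.298 TPM elsewhere, and IRF7 is at 0 in both libraries of sgRAC1 clones 1 and 2.

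IRF3, the factor that cells hold in latent form for activation by the kinase TBK1, spans chr19:49659569-49665875 on the minus strand. Its libraries ran from 5.34 through a median of 6.61 to 10.9 TPM over knockout clones and from 6.19 through 7.995 to 9.53 TPM over RAC1-positive lines. Line means were 7.40 ± 1.08 TPM in knockout and 7.94 ± 0.61 TPM in RAC1-positive lines (SD, n = 3 lines each). Their log2 difference was -0.11 (SE 0.15, limma adjusted p = 0.776), and the parental cells and sgRAC1 clone 3 had the highest line means. Exons of IRF3 share 19.4% of their bases with BCL2L12 on the opposite strand, which was at 3.36 to 7.13 TPM in knockout libraries and 0 to 11.3 TPM in RAC1-positive ones. The labels do not state whether counting used the strand, and without it reads of the pair cannot be told apart.

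IRF7, the inducible factor that carries the second wave of interferon genes, spans chr11:612553-615999 on the minus strand. It was at 0 in both libraries of sgRAC1 clones 1 and 2 and at 0.700 and 0.182 TPM in sgRAC1 clone 3. The RAC1-positive libraries were at 0.229 and 0.819 TPM in sgNTC clone 1, 0 and 0.199 TPM in sgNTC clone 2, and 0.333 and 0.246 TPM in the parental cells. IRF7 was listed above 0 in 2 of 6 knockout and 5 of 6 RAC1-positive libraries, and no other member was above 0 in fewer knockout than RAC1-positive libraries.

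IRF1, a factor induced through the gamma-activated site, spans chr5:132481609-132490798 on the minus strand. Knockout libraries ran from 0.514 through a median of 0.662 to 1.10 TPM and RAC1-positive ones from 0 through 0.557 to 0.936 TPM. The genotypes overlapped, and the 0 again belongs to sgNTC clone 2 replicate 1. The authors' deposited table gave a log2 fold change of 0.26 with an adjusted p of 0.78. Exons of IRF1 share 22.0% of their bases with C5orf56 on the opposite strand.

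Across the 6 lines, 6 of the 9 members had their highest line mean in sgRAC1 clone 3: DDX58, IFIH1, DHX58, MAVS, STAT2 and IRF9. The share of all genes highest in that clone was not computed, so nothing is read from this count. Its libraries were apart from those of the next line only for STAT2 and DHX58, and overlapped for DDX58, IFIH1, MAVS and IRF9. Relative to the mean of the RAC1-positive lines on the log2(TPM + 1) scale, DDX58 was at 1.24 in sgRAC1 clone 1, 1.49 in sgRAC1 clone 3 and 1.24 in sgRAC1 clone 2. STAT2 was at 0.30, 0.86 and 0.32 in the same 3 clones, and IFIH1 at 0.75, 0.75 and 0.54. The 3 RAC1-positive lines spread from -0.27 to 0.18 for DDX58, from -0.03 to 0.03 for STAT2 and from -0.34 to 0.25 for IFIH1. The 3 knockout clones had overlapping libraries for DDX58, while for STAT2 both libraries of sgRAC1 clone 3 were above those of the other 2 clones.

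**Figure D3:**
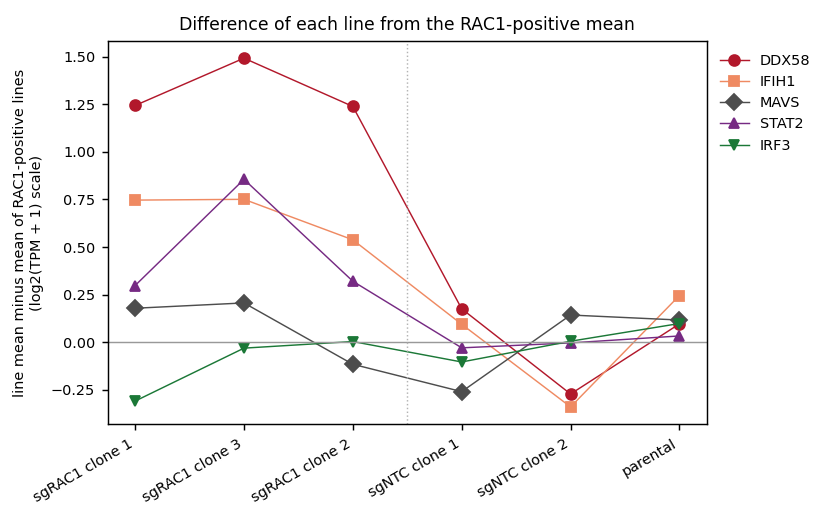
Mean log2(TPM + 1) of each line minus the mean of the 3 RAC1-positive lines (vertical axis) for the 5 expressed members in the 6 lines (horizontal axis), knockout clones left of the dotted line. DDX58 lies at 1.24 to 1.49 in the knockout clones, STAT2 reaches 0.86 in sgRAC1 clone 3 against 0.30 and 0.32 in sgRAC1 clones 1 and 2, and MAVS and IRF3 stay close to 0.

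The expressed genes whose 6 line means lay nearest to these profiles were found by the root mean square difference on the log2 scale. For DDX58 they were JUP (0.0993), SLFN5 (0.114) and FAM46C (0.146). For STAT2 they were RNF157 (0.0312), COPG1 (0.0509) and MAGOH2 (0.0515). For IFIH1 they were ZNF528 (0.0585), LBHD1 (0.0592) and KB-1027C11.4 (0.0710). No member was among the nearest 3 genes of another.

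Contrasts inside each genotype are not the one on which the members were chosen and can be tested. Their p-values measure only how far both libraries of a line differ, which may be technical, since beyond the label nothing says that these came from separate cultures. Between sgRAC1 clones 3 and 2, which share a guide, 0 of 5 expressed members passed, as did 0 of all 17367 genes, a share of 0%. At an unadjusted limma p under 0.05 there were 577 genes (3.32%), none of them a member. STAT2 had the largest difference of the 5, at 0.54 on the log2 scale (SE 0.27, limma adjusted p = 1, unadjusted p = 0.0809). DDX58 differed by 0.25 (SE 0.27), MAVS by 0.32 (SE 0.29), IFIH1 by 0.21 (SE 0.41) and IRF3 by -0.03 (SE 0.33), each with a limma adjusted p of 1. With no filter on level, DHX58 differed by 0.96 (SE 0.19, limma unadjusted p = 0.0011, adjusted p = 0.399), where 0.0697% of 32987 genes were called.

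Between sgRAC1 clone 1 and sgRAC1 clones 3 and 2, made with the other guide, no member passed, against 0.0864% of all genes. DDX58 differed by -0.12 (SE 0.23), IFIH1 by 0.10 (SE 0.35), MAVS by 0.13 (SE 0.25), STAT2 by -0.29 (SE 0.23) and IRF3 by -0.30 (SE 0.29), all at a limma adjusted p of 1. With 1 clone for guide sgRAC1_1, guide and clone cannot be told apart. Between the sgNTC clones and the parental cells no member passed either, against 0.00576% of all genes. DDX58 differed by -0.14 (SE 0.23), IFIH1 by -0.37 (SE 0.35), MAVS by -0.18 (SE 0.25), STAT2 by -0.05 (SE 0.23) and IRF3 by -0.15 (SE 0.29), again at a limma adjusted p of 1. These p-values do not show that the lines are alike.

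Between batches, no member passed at a limma adjusted p of 0.05 in the fit paired by line, against 0.0115% of all genes. IRF3 was at 8.80 TPM in batch 2 and 6.01 TPM in batch 1 on average over the knockout lines, and at 9.07 TPM in batch 2 and 6.82 TPM in batch 1 over the RAC1-positive lines. It was higher in batch 2 in 6 of 6 lines, as were 4.34% of all genes. The log2 difference was 0.41 (SE 0.13, limma unadjusted p = 0.0150, adjusted p = 0.453). MAVS differed by 0.21 (SE 0.16), DDX58 by 0.01 (SE 0.16), STAT2 by -0.01 (SE 0.16) and IFIH1 by -0.12 (SE 0.25). The knockout minus RAC1-positive difference was larger in batch 2 than in batch 1 by 0.45 for DDX58 and by 0.33 for STAT2, both at a limma adjusted p of 0.904 in a test added after the batch values were seen, with 0% of genes called.

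**Figure D4:**
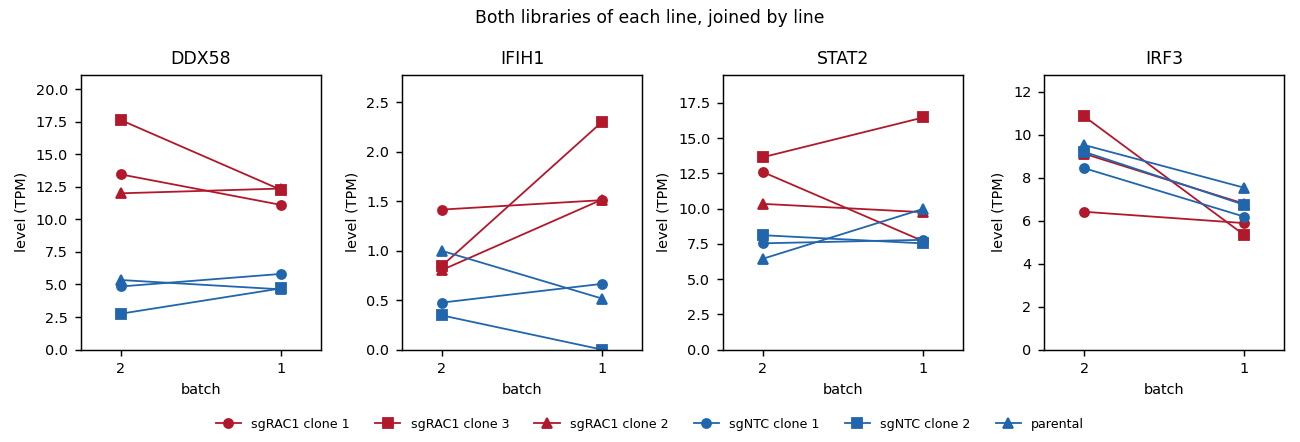
Level in TPM (vertical axis) of DDX58, IFIH1, STAT2 and IRF3 in batch 2 and batch 1 (horizontal axis), with a line joining the libraries of each cell line. IRF3 is higher in batch 2 in 6 of 6 lines, while DDX58 keeps the knockout clones above the RAC1-positive lines in both batches.

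The rest of the pathway was read from 6 lists, with no gene called in the limma fit over lines. The lists too were chosen with this contrast known, so their counts and medians are descriptions, and nothing is read from them. They stand beside the shares of all expressed genes given above, 11.97% with the knockout lines above and 8.52% with them below the RAC1-positive lines, which became 13.7% and 10.2% without sgNTC clone 2 replicate 1, an alternative added after that library was seen. Interferon ligands came first as the output of the sensors. Of 11 ligand genes, 10 were at 0 in all 12 libraries, IFNB1 among them. The exception was IFNE, an epithelial interferon, which reached 1.24 TPM in sgRAC1 clone 1. It was at 0 in 1 of the 6 knockout libraries and in 4 of the 6 RAC1-positive ones.

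Among 15 partners and kinases of the RNA sensors, all expressed, 3 had all knockout lines above and 3 below the RAC1-positive lines, against the 11.97% and 8.52% of all genes, and the median log2 difference was -0.05. Without sgNTC clone 2 replicate 1 the counts were again 3 and 3, but IKBKG overlapped and TANK was apart in its place, both named after their values were seen. DDX60, a helicase that promotes RIG-I signalling, ran from 0.763 through a median of 1.88 to 4.76 TPM in knockout libraries and from 0 through 0.462 to 0.850 TPM in RAC1-positive ones, and it passed the level filter only through the knockout lines. IKBKE, a kinase of IRF3, was at 11.6 ± 0.60 TPM in knockout and 8.62 ± 0.94 TPM in RAC1-positive lines (SD, n = 3 lines each), and all 6 knockout libraries were above all 6 RAC1-positive ones. PRKRA, the activator of the kinase PKR, was at 27.4 ± 3.62 TPM in knockout and 46.3 ± 14.0 TPM in RAC1-positive lines. TRAF3, the ubiquitin ligase between MAVS and TBK1, was at 3.83 ± 0.76 TPM in knockout and 5.91 ± 0.72 TPM in RAC1-positive lines. Of these 15, the authors' deposited table had DDX60 higher and PRKRA and TRAF3 lower at adjusted p 0.05, against 5.68% of all its genes higher and 4.06% lower.

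Of 18 other nucleic acid sensors and their adaptors 10 were expressed. Of these, OAS3, TICAM1 and IFI16 passed the level filter only through the knockout lines, so their difference was built in. The median log2 difference was 0.53 over the 10 and 0.10 over the other 7. All knockout lines were above the RAC1-positive lines for 6 of the 10 and below for 1, against 11.97% and 8.52% of all genes. The 6 include OAS3 and TICAM1, whose difference was built in, so nothing is read from the 6. Without sgNTC clone 2 replicate 1 the counts above and below were 6 and 0, as MB21D1, named after its values were seen, then overlapped. OASL, an OAS-like protein that enhances RIG-I, was at 17.6 ± 12.8 TPM in knockout and 2.65 ± 0.80 TPM in RAC1-positive lines (SD, n = 3 lines each), a log2 difference of 2.21 (SE 0.44, limma adjusted p = 0.156). Like STAT2 and DHX58, it was highest in sgRAC1 clone 3, at 33.7 and 30.9 TPM, against 10.3 and 11.6 TPM in sgRAC1 clone 2. With the line as a random block OASL passed, at a limma adjusted p of 0.00945. That fit used the same correlation, -0.0299, for every gene, so both libraries of sgRAC1 clone 3 counted almost as independent samples. OAS3, which makes the activator of RNase L, had medians of 2.18 TPM in knockout and 1.00 TPM in RAC1-positive libraries, and the adaptor TMEM173 (STING) of the DNA sensors had medians of 8.75 TPM in knockout and 5.06 TPM in RAC1-positive libraries. Both were at 0 in sgNTC clone 2 replicate 1, as was DDX60. MYD88, the adaptor of Toll-like receptors, was at 18.8 ± 3.18 TPM in knockout and 12.7 ± 2.35 TPM in RAC1-positive lines. The authors' deposited table had 5 of the 10 higher and 0 lower, against 5.68% and 4.06% of all its genes. The 5 include OAS3 and IFI16, which passed the level filter only through the knockout lines, so nothing is read from the 5. Both IFI16 libraries of sgRAC1 clone 1, at 0.172 and 0.161 TPM, were below all of those in sgRAC1 clones 3 and 2. They were also below those of the parental cells and sgNTC clone 1, and above those of sgNTC clone 2, both at 0.

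On the receiving side, 6 of 9 interferon receptors and JAK kinases were expressed, with a median log2 difference of 0.22. The smallest limma adjusted p over lines among them was 0.304. The knockout lines were above the RAC1-positive lines in 1, against 11.97% of all genes, and in 4 without sgNTC clone 2 replicate 1. The 1 was IFNGR2, a chain of the interferon gamma receptor, at 17.0 ± 0.83 TPM in knockout and 13.0 ± 1.37 TPM in RAC1-positive lines. JAK1, the kinase shared by these receptors, was at 16.2 ± 1.58 TPM in knockout and 13.3 ± 2.69 TPM in RAC1-positive lines. Of all 9, the authors' deposited table had 2 higher at adjusted p 0.05, JAK1 among them, and 0 lower. The shares of all its genes were 5.68% and 4.06%. A list of 14 genes held other STATs and IRFs, and also IRF2BP1, IRF2BP2 and IRF2BPL, which are not IRFs. Of the 14, 9 were expressed, with a median of 0.16. All knockout lines were above in 2 of them, IRF2BP2 and IRF5, against 11.97% of all genes. IRF5, named after its values were seen, was at 1.17 ± 0.14 TPM in knockout and 0.877 ± 0.21 TPM in RAC1-positive lines and passed the level filter only through the knockout lines. IRF2BP2, a corepressor that binds IRF2, was at 34.4 ± 3.81 TPM in knockout and 26.7 ± 2.92 TPM in RAC1-positive lines. STAT5B, whose lines overlapped, was at 5.11 ± 1.69 TPM in knockout and 3.17 ± 1.05 TPM in RAC1-positive lines. The authors' deposited table compared 10 of the 14, with IRF2BP2 alone higher and 0 lower, against 5.68% and 4.06% of all its genes.

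Of 18 negative regulators 16 were expressed, 4 with all knockout lines above and 0 below, against 11.97% and 8.52% of all genes. The median was 0.20, and 0.0899 without sgNTC clone 2 replicate 1, with the counts at 4 and 0. ISG15, the ubiquitin-like modifier that stabilises the receptor inhibitor USP18, was at 148.5 ± 57.9 TPM in knockout and 68.3 ± 7.94 TPM in RAC1-positive lines (SD, n = 3 lines each). Its log2 difference was 1.08 (SE 0.25, limma adjusted p = 0.197, and 0.0249 with the line as a random block). Of the 17 negative regulators compared in the authors' deposited table, ISG15 alone was higher and 0 were lower, against 5.68% and 4.06% of all its genes. RNF125, a ubiquitin ligase that marks RIG-I for breakdown, was at 4.63 ± 0.44 TPM in knockout and 3.26 ± 0.57 TPM in RAC1-positive lines. Over the 6 lists together, the limma fit with the line as a random block called OASL and ISG15 higher and no gene lower, where 1.69% of all genes were called higher. ISG15 too was highest in sgRAC1 clone 3, at 211 and 220 TPM, against 101 and 126 TPM in sgRAC1 clone 2. For both genes that call counted the libraries of a clone almost as independent samples.

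**Figure D5:**
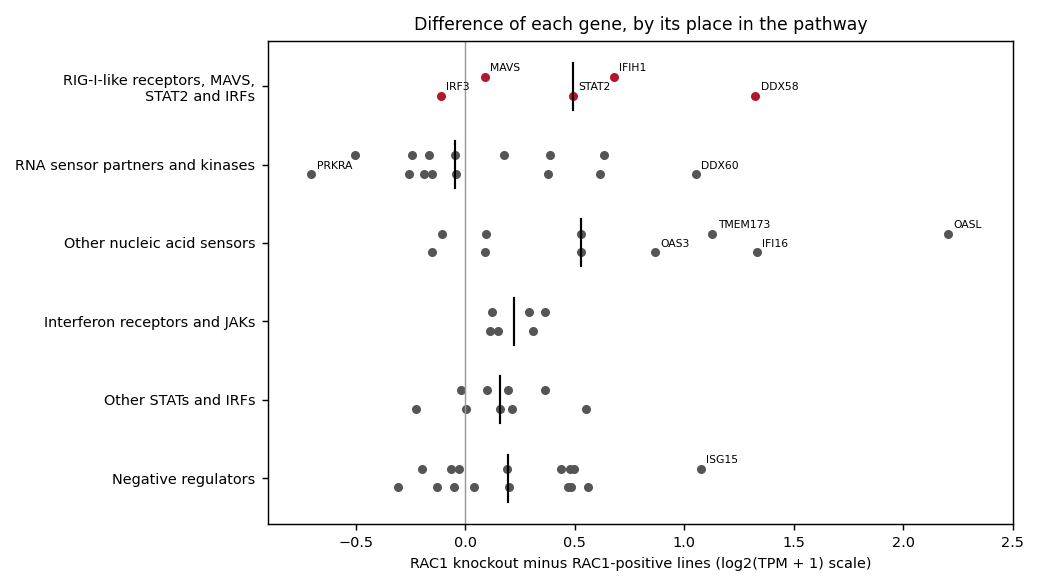
Difference on the log2(TPM + 1) scale, knockout minus RAC1-positive lines (horizontal axis), for each expressed gene in 6 groups of the pathway (vertical axis) with a bar at the median of the group. Names are given for the 5 expressed members and for the genes farthest from 0. DDX58 at 1.32, OASL at 2.21 and ISG15 at 1.08 stand to the right, as do IFI16, TMEM173 and DDX60, and PRKRA at -0.70 stands to the left.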

How the data were processed

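RNA-seq was done on 12 libraries of DU145 lines. Per the labels' protocols, 160 ng of RNA entered reverse transcription, amplification and tagmentation. Tools named in the submitters' processing notes are STAR 2.6.1d, bcl2fastq and DESeq2, with genome build GRCh38. Which tool counted reads, with which annotation and strand setting, is not stated there. The authors deposited a TPM value per library for 56832 genes. For 15140 genes the table also holds, per the file headers, the authors' comparison: the mean normalized count (a signal of at least 3.42), the log2 fold change and its error, the Wald score, the p-value and the adjusted p. The model behind it is not stated.

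Members and pathway lists were chosen with earlier results of these data known. Each list names up to 4 genes by smallest p. The values of 3 listed genes are not reported here. limma 3.58.1 (R 4.3.3, variance trend, Benjamini-Hochberg over all genes tested) was run on log2(TPM + 1), averaged over both libraries of a line, for genes of at least 1 TPM on average in either genotype. That scale understates changes of genes near or below 1 TPM. Contrasts within a genotype and between batches used the 12 libraries. The random block for the line had an estimated correlation of -0.0299. Positions came from GENCODE 29. Steps were tested on simulated data. The simulated libraries were drawn independently, with no added spread between lines, so that test cannot show how the fit over lines handles differences between clones. Labels say that the replicate number marks a shared batch. Same-numbered libraries of 15 pairs of lines had deviations correlated from -0.126 to 0.296 (median 0.026, 2 pairs over 0.1), and 0 of 66 pairs of libraries held identical values. Alternatives changed the unit of replication and the filter, added the replicate block, or changed scaling and pseudocount, and each batch was taken alone and each line or library left out.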

Additional observations from a re-analysis of the deposited data

Results flagged for a closer look

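A sample far from the other 5 of its genotype was found in 2 of 18 groups of 6 libraries, as its gap to the nearest value exceeded 0.625 of the range of the group. For independent values with a normal spread, chance gives this in about 1 in 20 groups. Each group here holds pairs of libraries from 3 lines, and some groups hold several values of 0, so that rate need not apply. DDX58 was at 17.62 TPM in sgRAC1 clone 3 replicate 2, with a gap of 0.6404 of the range of the knockout libraries. IRF7 was at 0.7002 TPM in sgRAC1 clone 3 replicate 1, with a gap of 0.7395 of the range. Both libraries belong to sgRAC1 clone 3.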

How the results depend on the processing

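The number of members called was unchanged under 104 of 107 alternatives. It was 1 (DDX58) instead of 0 in the comparison of genotypes with the line as a random block, with the replicate block, and with the random block less sgNTC clone 2 replicate 1, an alternative added after that library was seen. In each of these the samples were libraries and not lines. The replicate block changed no other call. Of 525 values of single genes 35 changed sign, none of them for DDX58, IFIH1 or STAT2 between genotypes. Leaving out 1 library at a time gave 1.22 to 1.42 for DDX58, 0.54 to 0.82 for IFIH1, 0.38 to 0.60 for STAT2, 0.0067 to 0.17 for MAVS and -0.26 to 0.0388 for IRF3. Other alternatives gave 0.90 to 1.55, 0.22 to 1.54 and 0.31 to 0.65 for DDX58, IFIH1 and STAT2. MAVS turned to -0.0245 in batch 2 alone and -0.04 without the line sgNTC clone 1. Leave-one-out ranges that crossed 0 were found for sgRAC1 clone 3 minus sgRAC1 clone 2 in IFIH1 (-0.21 to 0.63) and IRF3 (-0.49 to 0.42). They were also found for sgRAC1 clone 1 minus sgRAC1 clones 3 and 2 in DDX58 (-0.25 to 0.0059), IFIH1 (-0.11 to 0.31) and STAT2 (-0.61 to 0.0324), and for sgNTC clones minus parental in DDX58 (-0.29 to 0.0057), STAT2 (-0.33 to 0.23) and IRF3 (-0.30 to 0.0038). For batch 2 minus batch 1 they crossed 0 in DDX58 (-0.0868 to 0.13), IFIH1 (-0.23 to 0.0233) and STAT2 (-0.14 to 0.10). The same batch difference turned for DDX58 to -0.0425 with upper quartile scaling, -0.0087 with a pseudocount of 0.1 and -0.22 in RAC1-positive lines alone. It turned for IFIH1 to 0.0517 with a pseudocount of 0.1 and 0.22 in RAC1-positive lines alone, and for STAT2 to 0.16 in knockout lines alone. The cause of these turns was not tested. With depth unknown, no limit can be set on members listed at 0.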
